A study of Mus musculus with 2 samples.

Results

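The 10 genes described here encode RNA-binding proteins that act on messenger RNAs in neurons: Elavl2, Elavl3 and Elavl4, Celf1 and Celf2, Rbfox2, Ptbp2, and the fragile X family genes Fmr1, Fxr1 and Fxr2. They were chosen by name, as members of 5 families, out of 45578 genes in the table. The rule that picks them uses no measured value, but they were chosen with earlier results of these data known. Each gene was represented by the listed transcript with the highest count summed over both libraries.

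The Elavl proteins, also called Hu proteins, bind AU-rich and U-rich stretches of messenger RNAs and stabilise them. Celf proteins bind GU-rich elements and act in splicing and in messenger RNA decay, Rbfox proteins regulate alternative exons from a short motif in the neighbouring introns, and Ptbp2 is the polypyrimidine tract protein that takes over from Ptbp1 as neurons form. Fmr1 encodes the fragile X protein, which is found with polyribosomes and is known for restraining translation of its targets; Fxr1 and Fxr2 are its autosomal paralogs.

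The material was whole brain taken at postnatal day 5 from control animals of the Taiwanese spinal muscular atrophy line on an FVB background. Their genotype is Smn+/-; SMN2tg/0, so both libraries carry 1 functional mouse Smn allele and the human SMN2 transgene, and there is neither a wild-type nor an affected group. RiboLace captures translating ribosomes on beads, and the RNA fragments that these ribosomes protect, size selected at 25 to 35 nucleotides, were sequenced. The labels give 2 biological replicates, while the design text speaks of a mouse in the singular, so the differences below measure only the spread between these 2 libraries, which may be partly technical.

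The gene counts summed to 343552 in replicate 1 and 120282 in replicate 2, a 2.86-fold difference in depth, so that a single count stood for 2.71 CPM (counts scaled to the TMM-adjusted library size) in the deeper library and for 8.93 CPM in the other. All 5 neuronal markers examined had counts, between 34 and 1061 per library. Markers of the other cell types in whole brain and of blood were also present: all 4 astrocyte and radial glia, 5 oligodendrocyte lineage, 3 microglial, 3 endothelial and 4 erythroid markers had counts. Since the sample is bulk tissue, fewer cells of a type and less RNA per cell cannot be told apart in any level given here.

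How the table treats isoforms decides much of what follows. Coding isoforms that are nearly the same in length, with coding sequences of 1 length and untranslated regions within 30 nucleotides, were compared over the whole table, 1 pair a gene. The squared difference of their counts divided by the sum averaged 0.428 over 263 genes in replicate 1 and 0.404 over 124 genes in replicate 2. For isoforms of the same sequence, counting each fragment on every matching isoform would give 0, and placing each on 1 isoform at random would give about 1. The pairs were matched on lengths alone and their sequences were not compared. These averages therefore cannot settle how fragments were counted. In replicate 1 the average was 0.222 for the 77 genes with 2 to 4 listed transcripts and 0.635 for the 92 genes with 9 or more, with 0.394 for the 94 genes between. In replicate 2 there was no such order, with 0.346 over 43 genes, 0.462 over 42 and 0.405 over 39 in the same classes. With the way of counting unsettled, the count of the highest transcript is taken here as the lower end, and the sum over all listed transcripts as the upper end, of the number of fragments of a gene, provided that each fragment was placed on at least 1 transcript and that fragments shared with paralogs are set aside. Sharing with paralogs was not tested.

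Elavl3, which encodes the neuronal Hu protein HuC and lies on chromosome 9, had the highest level of the 10 when the highest transcript was used. Its only listed transcript, with a coding sequence of 1104 nucleotides and a 3' untranslated region of 3498, carried 129 and 54 counts in replicates 1 and 2. Levels below are counts per kb of coding sequence after scaling to CPM, unless given per kb of whole transcript. Levels on isoform sums have a scale of their own, because the summed counts make larger libraries. On that scale 1 count weighs 1.33 CPM for the deeper library and 4.58 for the other. A gene with unchanged counts therefore has a lower level on the sums, and the sizes of levels cannot be compared between the 2 measures. Transcripts with no listed coding sequence also had counts, so counts may include fragments outside coding sequences, which was not tested. For Elavl3 the levels were 317 (95% Poisson interval 264 to 376) and 437 (328 to 570), with a mean of 377 ± 84.9 (SD, n = 2). By this measure Elavl3 ranked 360 from the top among the 13653 protein-coding genes with a count and a coding sequence, at percentile 97.4. Elavl2 and Elavl4 were at 76.8 and 76.7. On the isoform sums the percentiles were 93.2 for Elavl3, 92.8 for Elavl2 and 92.3 for Elavl4, so the rank rests on how isoforms are counted.

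Elavl2 and Elavl4, which encode HuB and HuD and both lie on chromosome 4, had far fewer counts on any single transcript. Elavl2 has 16 listed transcripts, and the highest, with 1167 coding nucleotides, had 23 and 5 counts, for levels of 53.4 (33.9 to 80.1) and 38.3 (12.4 to 89.3). Elavl4 has 12, and the highest, with 1152 coding nucleotides, had 19 and 6 counts, for levels of 44.7 (26.9 to 69.8) and 46.5 (17.1 to 101). The levels of Elavl2 and Elavl4 overlapped in both libraries and could not be told apart: their ratio was 1.19 in replicate 1 (95% exact interval 0.623 to 2.32) and 0.823 in replicate 2 (0.199 to 3.24).

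On the highest transcripts, Elavl3 exceeded Elavl4 by 7.08-fold in replicate 1 (4.36 to 12.1) and 9.39-fold in replicate 2 (4.05 to 26.7), and Elavl2 by 5.93-fold (3.78 to 9.69) and 11.4-fold (4.60 to 36.6). On the sums over isoforms that difference was gone. Elavl2 summed to 159 and 45 counts and Elavl4 to 145 and 41, and the ratio of Elavl3 to Elavl4 became 0.928 (0.727 to 1.19) and 1.37 (0.899 to 2.12). The single listed transcript of Elavl3 cannot be split, so the order within the Hu genes rests on how isoforms are counted. Intervals on sums are too narrow, because a fragment can enter a sum more than once.

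Celf2, a splicing regulator on chromosome 2, has 28 listed transcripts, the most of the 10 genes. Its highest, with 1581 coding nucleotides and a 3' untranslated region of 7119, had 49 and 15 counts, for levels of 84.0 (62.1 to 111) and 84.7 (47.4 to 140) and a mean of 84.4 ± 0.517 (SD, n = 2). The sum over its transcripts was 689 and 170 counts, 14.1 and 11.3 times the highest transcript, which is the widest range of the 10 genes. Many of its isoforms carried counts, though a fragment may be counted on more than 1 of them. The 18 coding transcripts carried 6 to 49 counts in replicate 1 and 1 to 15 in replicate 2. The 1 transcript annotated for nonsense-mediated decay carried 37 and 11. The 4 retained-intron transcripts carried 9 to 23 in replicate 1 and 0 to 5 in replicate 2. Sequence that these transcripts share with coding isoforms was not examined.

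Celf1, also on chromosome 2 and known for promoting the decay of GU-rich messages, had 28 and 5 counts on its highest transcript, for levels of 51.9 (34.5 to 75.1) and 30.6 (9.92 to 71.3). Its 9 coding transcripts carried 14 to 28 counts in replicate 1 and 0 to 7 in replicate 2. The 0 belongs to Celf1-001, which had 24 counts in replicate 1 and for which 0 counts allow up to 3. Celf2 exceeded Celf1 by 1.62-fold (0.997 to 2.67) and 2.77-fold (0.958 to 9.75) on the highest transcripts, intervals that include 1, and by 3.23-fold (2.75 to 3.81) and 3.65-fold (2.60 to 5.23) on the sums. Celf2 was the higher of the pair on both measures and in both libraries. The intervals on the sums are too narrow to set this against counting error, and the lower end of Celf2 did not exceed the upper end of Celf1.

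Some transcripts of a gene have equal coding lengths but 3' untranslated regions that differ by at least 1000 nucleotides. In Celf1, 6 such pairs differ by 3068 to 3170 nucleotides, and the longer transcript had 4 to 11 more counts in replicate 1 and 1 to 3 more in replicate 2. The pairs share transcripts and are not independent. Their 5' untranslated regions also differed, by -326 to 297 nucleotides (longer transcript minus shorter), and equal coding length need not mean equal coding sequence. In Celf2, an extra 3268 nucleotides came with 49 against 43 counts and 15 against 10. In Elavl2, a transcript with a 3' untranslated region of 2471 nucleotides had 17 and 2 counts, and one with none listed had 12 and 5, so the libraries differed in direction.

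Rbfox2, on chromosome 15, encodes a splicing regulator of neurons and other tissues and stood second by level. Its highest transcript, with 1350 coding nucleotides, had 68 and 15 counts, for levels of 137 (106 to 173) and 99.2 (55.5 to 164) and a mean of 118 ± 26.4 (SD, n = 2). All 4 of its listed transcripts are coding and carried similar counts, 58 to 68 in replicate 1 and 11 to 18 in replicate 2, and they sum to 246 and 60.

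Ptbp2, on chromosome 3, followed with 54 and 14 counts, 1596 coding nucleotides and levels of 91.7 (68.9 to 120) and 78.3 (42.8 to 131). It has 2 listed transcripts annotated for nonsense-mediated decay, the fate to which skipping of a regulated exon sends messages of this gene family. Ptbp2-008 (1598 nucleotides long) had 49 and 8 counts, against 54 and 14 for the coding Ptbp2-001 of 3777 nucleotides. Ptbp2-006 (576 nucleotides long) had 20 and 0 counts, where the preset upper bound for 0 counts is 3. These counts do not show that the decay isoforms were translated, since most of their sequence may be shared with coding isoforms, which was not tested.

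**Figure D1:**
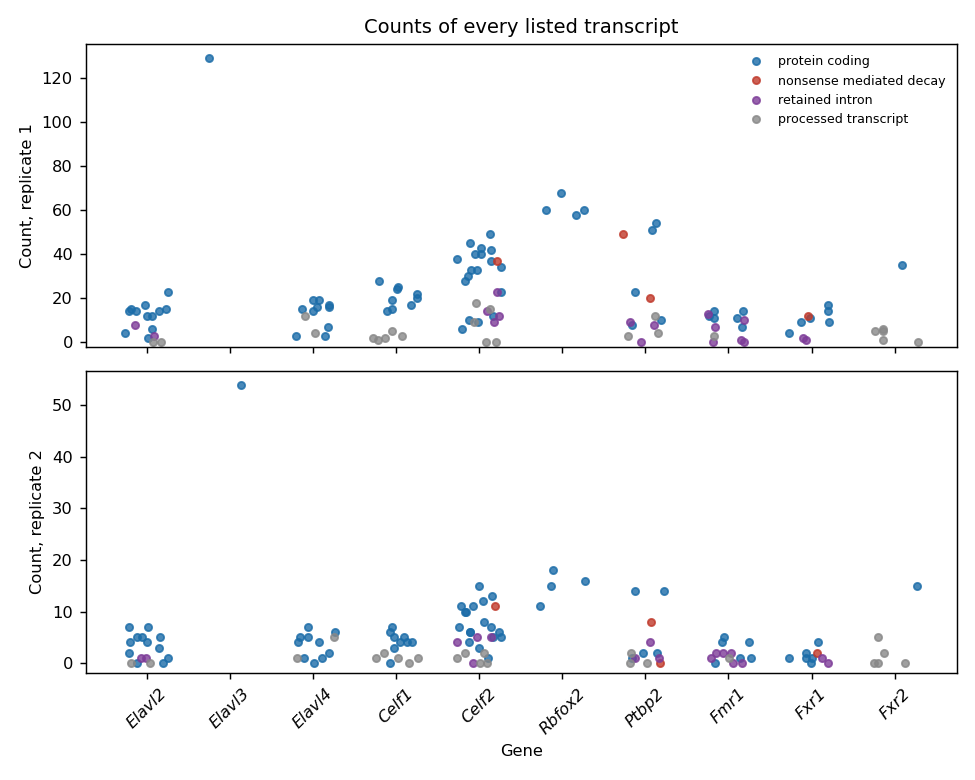
Count of every listed transcript of the 10 genes (vertical axis) by gene, with replicate 1 above and replicate 2 below and colours for the annotated transcript class; horizontal scatter within a gene has no meaning. Elavl3 has a single point at 129 and 54 counts, while the 28 transcripts of Celf2 spread from 0 to 49 in replicate 1.

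Over the 10 genes the table lists 116 transcripts, of which 110 had a count in at least 1 library. The 72 coding transcripts all had counts and held 1702 of the 2050 transcript counts in replicate 1 and 442 of 519 in replicate 2. All 4 transcripts annotated for nonsense-mediated decay, 15 of 17 retained-intron transcripts and 19 of 23 processed transcripts also had counts. Fragments that these share with coding transcripts were not separated.

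The fragile X family genes were the lowest group on the isoform sums, and Fmr1 and Fxr1 were the lowest pair on the highest transcripts. Fmr1, on chromosome X, had 11 and 5 counts over 1845 coding nucleotides, for levels of 16.2 (8.07 to 28.9) and 24.2 (7.86 to 56.5). Another of its 13 listed transcripts, Fmr1-009, tied with it at 12 and 4 counts. Its 6 retained-intron transcripts carried 0 to 13 counts in replicate 1, against 7 to 14 for its 6 coding transcripts. In replicate 2 these were 0 to 2 against 0 to 5. Sequence shared between the 2 classes was not examined.

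Fxr1, on chromosome 3, had 14 and 4 counts over 1620 coding nucleotides, for levels of 23.4 (12.8 to 39.3) and 22.0 (6.01 to 56.5). It too had a tie, with Fxr1-002 at 17 and 1 counts. The levels of Fxr1 and Fmr1 were not distinguishable in either library, with ratios of 1.45 (0.611 to 3.53) and 0.911 (0.181 to 4.23).

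Fxr2, on chromosome 11, has a single coding transcript, with 2025 coding nucleotides and 35 and 15 counts, for levels of 46.8 (32.6 to 65.1) and 66.1 (37.0 to 109). On the highest transcripts it exceeded Fmr1 by 2.90-fold (1.44 to 6.33) in replicate 1 and 2.73-fold (0.944 to 9.61) in replicate 2. On the sums this turned round in replicate 1, where Fmr1 had 103 counts against 52 for Fxr2 and the ratio of Fxr2 to Fmr1 was 0.460 (0.323 to 0.648). In replicate 2, with 23 and 22 counts, it was 0.871 (0.463 to 1.64). The data do not give an order of Fmr1 and Fxr2 that holds under both ways of counting.

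**Figure D2:**
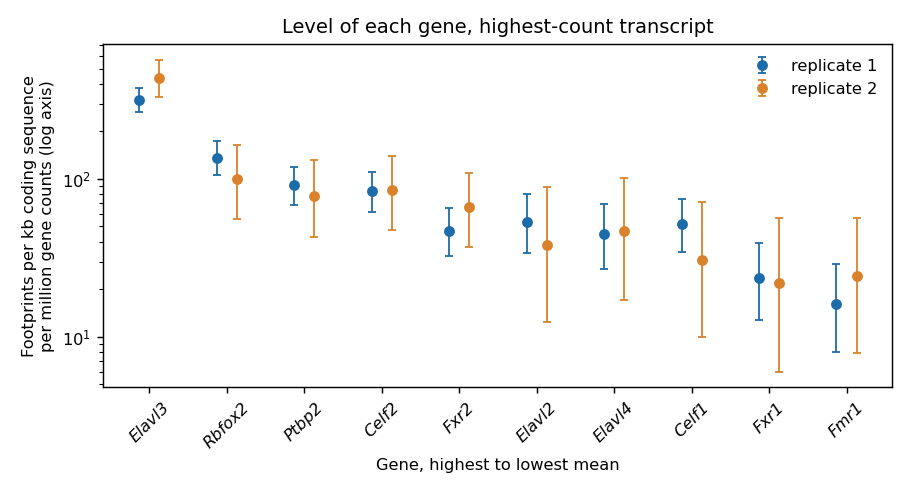
Level of each gene on its highest-count transcript, in CPM per kb of coding sequence (log axis), by gene from the highest to the lowest mean; blue is replicate 1, orange replicate 2 and bars are 95% Poisson intervals. Elavl3, at 317 and 437, stands apart from the other 9 genes, whose intervals overlap those of their neighbours.

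In the order of mean levels, Elavl3 was followed by Rbfox2 at 118, Ptbp2 at 85.0, Celf2 at 84.4, Fxr2 at 56.5, Elavl2 at 45.8, Elavl4 at 45.6, Celf1 at 41.2, Fxr1 at 22.7 and Fmr1 at 20.2. Of the 9 steps between neighbours, only that from Elavl3 to Rbfox2 was larger than both the range of the libraries and the counting intervals. On the sums the order began with Celf2, Rbfox2, Elavl3 and Elavl2 and ended with Fmr1, Fxr1 and Fxr2, so Fxr2 went from the fifth place to the last and Celf2 from the fourth to the first.

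Some orders per kb of coding sequence of the kept transcript held whichever end of the range was taken. Of the 45 pairs of genes, 5 had the lower end of 1 gene above the upper end of the other in both libraries, on counts per kb of coding sequence. Elavl3, at 117 counts per kb in replicate 1 and 48.9 in replicate 2, lay above the upper ends of Fmr1 (55.8 and 12.5), Fxr1 (48.8 and 7.41) and Fxr2 (25.7 and 10.9). Rbfox2, with lower ends of 50.4 and 11.1, lay above the upper ends of Fxr1 and Fxr2, though by a narrow margin over Fxr1 in replicate 1 and over Fxr2 in replicate 2. These comparisons take the counts as they stand, without counting error. They also rest on dividing both ends by the coding length of the kept transcript. Other coding isoforms have other coding lengths, such as 1365 nucleotides in Fxr1-003 against 1620 in the kept Fxr1 transcript. A shorter length would raise the upper end of Fxr1, and whether the narrow order of Rbfox2 over Fxr1 would then hold was not tested. Per kb of whole transcript, the mean level of Rbfox2 on its highest transcript was 22.6, below 38.8 for Fxr2. The ends of the ranges were not compared per kb of whole transcript.

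**Figure D3:**
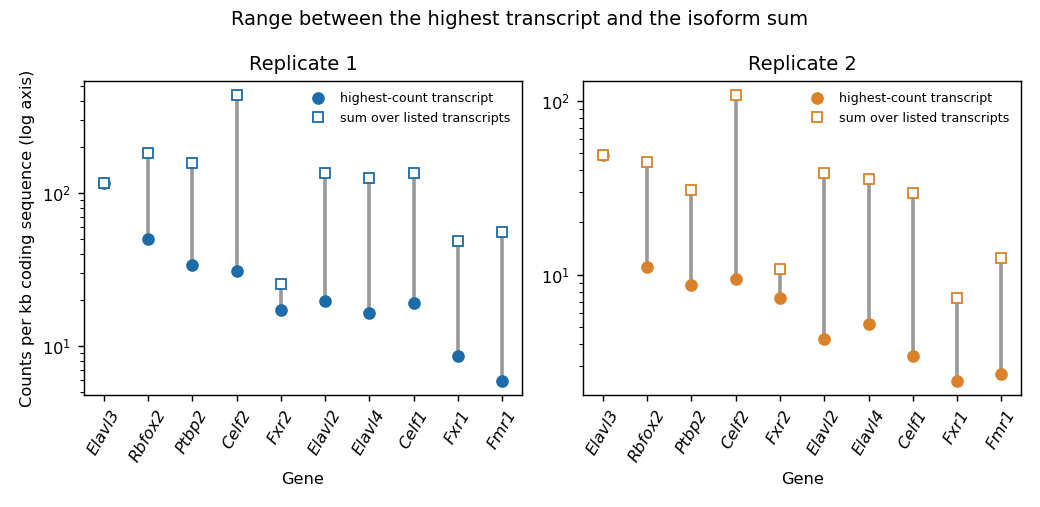
Counts per kb of coding sequence (log axis) by gene for replicate 1 (left) and replicate 2 (right); filled circles are the highest-count transcript, open squares the sum over listed transcripts and grey lines the range between them. Celf2 has the widest range, from 31.0 to 436 in replicate 1, and Elavl3 has none.

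The families held unequal parts of the summed level of the 10 genes. The 3 Elavl genes held 47.9% in replicate 1 and 56.3% in replicate 2, or 52.1% ± 5.90 (SD, n = 2). Most of this share came from Elavl3, with a mean level of 377 against 45.8 for Elavl2 and 45.6 for Elavl4. The Celf genes held 14.1% ± 2.31, Rbfox2 13.2% ± 3.58, the fragile X genes 11.1% ± 1.51 and Ptbp2 9.52% ± 1.52 (each SD, n = 2). On the isoform sums the Elavl share was 30.2% ± 4.90 and the Celf share 38.8% ± 1.96 (each SD, n = 2), so the leading family changed, while Rbfox2 at 12.5% and Ptbp2 at 9.74% kept nearly the same share. Per kb of whole transcript the fragile X share was 23.6% and that of Ptbp2 14.4%, while the Elavl share was 43.5%.

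The kept transcripts have long 3' untranslated regions. Their median was 2536 nucleotides, with a range from 598 in Fxr2 to 7119 in Celf2, against a median of 979 over the 13653 protein-coding genes, and 9 of the 10 lay above that median. The 3' untranslated region made up 81.5% of the Celf2 transcript, 79.4% of Celf1 and 20.3% of Fxr2. Coding lengths were closer to those of other genes, with a median of 1521 nucleotides against 1344. The genes also have many listed transcripts, with a median of 12.5 against 3. All of these are annotated lengths and numbers, given as a description.

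The question that 2 replicates of 1 group allow is whether the reads of the libraries differ for these genes. Of the 10, 8 had a mean of at least 10 counts and were tested, Fmr1 and Fxr1 falling below. The exact binomial test with Benjamini-Hochberg adjustment over all 5436 genes tested called 0 of the 8, against 4.14% of all genes tested and 0.956% of the 4392 protein-coding genes. None of the 8 (0) had an unadjusted exact binomial p under 0.05 either, against 522 of the 5436 genes tested. The exact test of edgeR with the preset coefficient of variation gave 0 both ways. Over all genes tested it called 131, and 260 had an unadjusted p under 0.05. Both tests compare the reads of these libraries, not conditions.

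Elavl3 came closest, at 350 CPM in replicate 1 and 482 CPM in replicate 2, a log2 ratio of replicate 2 over replicate 1 of 0.46 with a counting SE of 0.233 (exact binomial p = 0.0539 before and 0.543 after Benjamini-Hochberg adjustment). The others ranged from -0.75 for Celf1 (SE 0.686) to 0.49 for Fxr2 (SE 0.442), with 1 CPM added before taking logs, so that ratios of low genes come out too small. Of the 8, 4 ratios were above 0 and 4 below, and the median was -0.11 against 0.0041 over all genes tested.

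**Figure D4:**
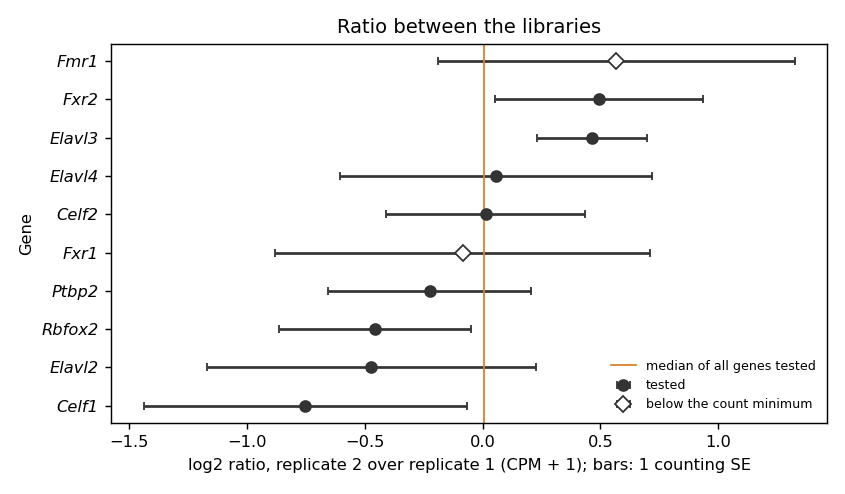
Log2 ratio of replicate 2 over replicate 1 on CPM + 1 (horizontal axis) for each gene, with bars of 1 counting SE; filled circles were tested, open diamonds fell below the count minimum, and the orange line is the median of all genes tested. The ratios lie on both sides of that line, from -0.75 for Celf1 to 0.57 for Fmr1.

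On the isoform sums all 10 genes passed the count minimum and 0 of the 10 were called by the exact binomial test, against 7.23% of the 8366 genes tested that way. Of the 10, 3 had an unadjusted exact binomial p under 0.05, against 1577 of those 8366 genes. The lowest adjusted p was that of Ptbp2, with 251 and 49 summed counts, a log2 ratio of -0.57 (SE 0.224) and an adjusted exact p of 0.101. Elavl3 followed at 0.53 (SE 0.233), higher in replicate 2, with an adjusted exact p of 0.185. Fxr1, with 79 and 12 summed counts, came next at -0.92 on the log2 scale (SE 0.440), with an adjusted exact p of 0.204.

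The paralogs outside the 10 genes are Elavl1, Celf3 to Celf6, Rbfox1, Rbfox3, Ptbp1 and Ptbp3. Of the 9, 6 were tested and 0 were called, with a median log2 ratio of -0.55 and 5 of the 6 below 0. In this list and those that follow, 0 of 23 genes tested were called, against 4.14% of all genes tested and 0.956% of protein-coding genes tested. With lists this short, these counts do not set the related genes apart. Of the 23, 0 had an unadjusted p under 0.05 by the exact binomial test, against 522 of all 5436 genes tested. The highest by level was Celf4, a neuronal Celf protein, with 96 and 33 counts and levels of 179 and 203. Elavl1, the broadly expressed Hu protein HuR, had 44 and 12 counts and levels of 122 and 109, above the single transcripts of Elavl2 and Elavl4 and below that of Elavl3. Like Elavl3 it has 1 listed transcript, so its counts are the same on the isoform sums and its level there is lower by scale alone. Among the sums the order turned, with a mean level of 57.9 for Elavl1 against 179 for Elavl2 and 165 for Elavl4. Rbfox1 followed with 44 and 9 counts and levels of 95.1 and 64.1. On the isoform sums Celf4 stayed highest of the paralogs at a mean level of 185. Rbfox1, at 82.1, then lay below several of them, among these Rbfox3 at 148. Ptbp1, the partner that Ptbp2 replaces in neurons, had 12 and 4 counts and levels of 30.6 and 33.6 on its highest transcript, against 91.7 and 78.3 for Ptbp2. On the isoform sums the mean levels were closer, at 114 for Ptbp1 and 175 for Ptbp2. Ptbp1 and Rbfox3 are named here after their values were seen.

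Among 24 other RNA-binding regulators of neural cells, 11 were tested and 0 called, against 4.14% of all genes tested. The median log2 ratio of the 11 was -0.11. Qk, the quaking protein of glia, stood highest with 66 and 29 counts and levels of 174 and 252, followed by Khdrbs1 (Sam68) with 74 and 29 counts and levels of 151 and 194, and Khdrbs3 with 46 and 15 counts and levels of 120 and 129. On the isoform sums Qk and Khdrbs1 stayed highest, at mean levels of 202 and 199. Khdrbs3, with 1 listed transcript and so unchanged counts, was at 62.4 on the scale of the sums, below several others, among these Syncrip at 162. Of 7 partners of the fragile X proteins, 6 were tested and 0 called, with a median of -0.07. Caprin1, a component of neuronal RNA granules, had 85 and 35 counts and levels of 108 and 147, and the stress granule proteins G3bp2 and G3bp1 had mean levels of 89.0 ± 3.79 and 67.5 ± 14.2 (each SD, n = 2). On the isoform sums Caprin1 and G3bp2 stayed highest of the partners, at 262 and 239. G3bp1, at 38.5, then lay below Cyfip2 at 103.

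On the isoform sums, 2 of the 34 related genes tested were called, both lower in replicate 2, against 7.23% of all genes tested that way, so the count does not set these genes apart. On the highest transcripts, the genes called over the whole table were 217 higher and 8 lower in replicate 2. That split is not given here for the sums. Celf5 had 145 and 20 summed counts, a log2 ratio of -1.06 and an Benjamini-Hochberg adjusted exact p of 0.0197, and Syncrip had 252 and 46, a ratio of -0.67 and an adjusted exact p of 0.0423. Neither was called on its highest transcript, with 29 and 6 counts for Celf5 and 39 and 9 for Syncrip.

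**Figure D5:**
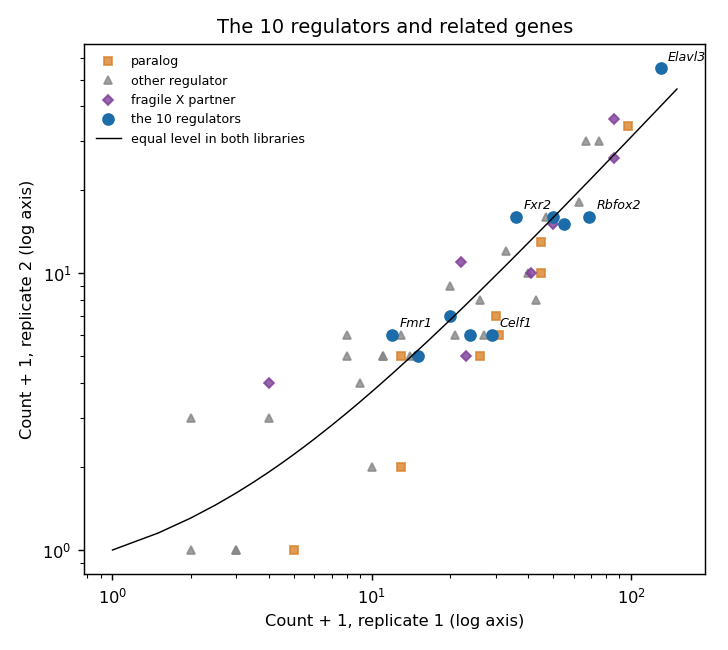
Count plus 1 in replicate 1 (horizontal, log axis) against replicate 2 (vertical, log axis) for the 10 regulators (blue circles), their paralogs (orange squares), other regulators (grey triangles) and fragile X partners (purple diamonds), all on the highest-count transcript; the line marks equal level after TMM scaling. Elavl3, at 129 and 54 counts, has the highest counts of all genes shown.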

How the data were processed

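The authors deposited 1 table of whole-number counts per transcript and replicate, not normalised, with transcript and region lengths, per the file headers. Trimmomatic 0.36, Bowtie2 2.2.6, SAMtools and the build GRCm38.p4 are named in the submitters' processing notes; their settings, the counting tool and the handling of fragments that match several transcripts are not given in the sources used here. Of the numeric columns, 0 were left unmapped.

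For each gene the transcript with most counts over the libraries together was kept, the longer one in a tie. The 10 genes and all lists were chosen with earlier results of these data known. All 10 matched the name table. Chromosomes come from the RefSeq table of a later patch of the build, so positions are not given. Library sizes were scaled by TMM (edgeR 4.0.16), separately for the highest transcripts and for the isoform sums. Every gene with a mean of at least 10 counts was compared between the libraries by a 2-sided exact binomial test with Benjamini-Hochberg adjustment at 0.05, checked on simulated data. The simulated counts varied by Poisson counting error alone, so the check cannot show how the test behaves under other variation between libraries. Log2 ratios use a pseudocount of 1 CPM. Intervals are 95% exact Poisson or conditional binomial, computed with scipy 1.17.1, and cover counting error only, since PCR reads are not independent molecules. Named genes are all 10, and from each related list the 3 with the highest level and any past the test. Ptbp1, Rbfox3 and Cyfip2 were named after their values were seen. Alternatives were library totals, DESeq2 1.42.0 size factors, other count minimums, coding genes alone, the isoform with the longest coding sequence, isoform sums, transcript length, a preset coefficient of variation of 0.2 (edgeR) and a pseudocount of 0.1. The isoform sums of single levels and the check of isoform pairs were added after seeing the data.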

Additional observations from a re-analysis of the deposited data

How the results depend on the processing

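The number of the 10 regulators called between the libraries was 0 under each alternative run, with 1 to 10 of them tested. With no adjustment, p was under 0.05 for 3 of them with isoforms summed, for 1 among coding genes alone and for 0 elsewhere. Over all genes tested the number was 1577 of 8366 with isoforms summed and 253 of 4392 among coding genes alone. For the related genes the number called was 0 except with isoforms summed, where it was 2. Summing can count a fragment more than once, and that test would then take repeats for independent counts. The median log2 ratio of -0.11 turned to 0.39 when a minimum mean of 50 counts left only Elavl3 to test, and to 0.04 for the longest coding isoform, with 6 genes; it lay between -0.31 and -0.09 under the others. The Elavl share of the summed density, 52.1%, became 30.2% with isoforms summed and 43.5% per kb of whole transcript, and ranged from 47.9% to 56.3% when either replicate was left out. Levels of all 10 genes moved by more than their SD with isoforms summed or per transcript length, both of which change the scale, and 3 of the 10 on the longest coding isoform: Fxr1 from 22.7 to 8.39, Elavl4 from 45.6 to 25.9 and Celf2 from 84.4 to 86.4. None (0) moved that far with library totals. With 2 libraries, leaving out either cannot move a mean by more than its SD, so that setting says nothing about stability. No paired analysis was possible because both libraries belong to 1 group. Over all genes tested, 225 of 5436 were called as designed and 605 of 8366 with isoforms summed. The number was 75 of 764 at the minimum of 50 counts and 22 of 4392 among coding genes alone. With the preset variation it was 131 of 5436. Depth limited the comparison most for Fmr1 and Fxr1, with 5 and 4 counts in replicate 2.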
